A study of Mus musculus with 6 samples.

Results

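The data describe 9 genes of cornification and epidermal differentiation, Hal, Spink5, Sprr1a, Sbsn, Tgm1, Foxn1, Lgals7, Krtdap and Ivl, in mouse salivary gland. They were found by gene symbol, and all 9 stand among the 24054 genes of the count table. The genes were proposed for attention from the same contrast of K5-RANKL and control glands that is described here, so their levels in that contrast are given as a description, with no test. Of the 9, 7 had enough counts for the test run across all genes, and Krtdap and Ivl did not.

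Messenger RNA was sequenced from 3 control and 3 K5-RANKL pools. The K5-RANKL mice carried K5-rtTA:TetO-RANKL, where the keratin 5 promoter expresses rtTA and rtTA with doxycycline switches on RANKL, a TNF family cytokine. The controls were monogenic, and which transgene they carried is not given in the sources used here. Mice of both groups were 9 weeks old when doxycycline was started in food and water for 2 weeks, and each library pooled the salivary glands of 5 mice. The promoter directs RANKL to keratin 5 positive epithelium, the basal and myoepithelial cells of this tissue, and the spread between libraries is that between pools and not between single animals.

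Cornification is the terminal programme of stratified epithelia such as the epidermis. Keratinocytes leave the basal layer, switch keratins, cross-link precursor proteins such as involucrin and the small proline-rich proteins into an envelope with transglutaminases, coat it with lipids, and are shed when proteases held in check by inhibitors cut their desmosomes. The secretory epithelium of the salivary gland does not cornify, although it contains basal cells that share keratins with the epidermis.

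Some members share features of position and promoter sequence, which are not drawn from these counts. The genes were grouped under an epidermal label, so such features cannot be taken as independent of that choice. Sprr1a (GRCm38, chr3:92483954-92485881) and Ivl (chr3:92570899-92573790), both on the minus strand, lie 85.0 kb apart in the epidermal differentiation complex, the gene cluster that encodes most envelope precursors. Sbsn (chr7:30732674-30756134) and Krtdap (chr7:30787905-30791089), on the plus strand, lie 31.8 kb apart, with Dmkn, which encodes the secreted epidermal protein dermokine, between them. Lgals7 (chr7:28863796-28866285) is on the same chromosome. Hal (chr10:93488768-93516761), Foxn1 (chr11:78357577-78386783) and Tgm1 (chr14:55700009-55713921), like Spink5, lie on other chromosomes. All 9 are protein-coding genes in RefSeq.

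Promoters of 8 members were found among RefSeq start sites on GRCm38.p6, and their 250 bases before the start were searched on both strands for 6 short motifs. A loose AP-1 motif, TGANTCA with any base at its centre, stood in the promoters of 5 of the 8, and in 6.75% of all 32851 windows of that length. The match was TGAGTCA in Sprr1a and Krtdap and TGACTCA in Ivl, with G or C at the centre. It was TGAATCA in Sbsn and TGATTCA in Hal, with A or T there. AP-1, the Fos and Jun family of transcription factors, is a known regulator of epidermal genes. These 5 promoters are shown 5′ to 3′ because they match this loose motif, as most members' promoters did. Capitals mark the matches to it.
Sprr1a (chr3:92485882-92486131, minus strand): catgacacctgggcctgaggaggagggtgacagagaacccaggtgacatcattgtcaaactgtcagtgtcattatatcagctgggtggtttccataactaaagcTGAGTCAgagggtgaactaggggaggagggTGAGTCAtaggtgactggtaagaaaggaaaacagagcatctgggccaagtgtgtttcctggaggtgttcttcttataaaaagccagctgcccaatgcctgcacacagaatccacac
Ivl (chr3:92573736-92573985, minus strand): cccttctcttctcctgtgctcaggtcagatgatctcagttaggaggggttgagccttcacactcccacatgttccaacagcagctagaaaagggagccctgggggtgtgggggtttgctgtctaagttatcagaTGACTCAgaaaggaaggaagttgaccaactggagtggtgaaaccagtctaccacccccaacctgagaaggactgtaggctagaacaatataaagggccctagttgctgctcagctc
Sbsn (chr7:30751221-30751470, plus strand): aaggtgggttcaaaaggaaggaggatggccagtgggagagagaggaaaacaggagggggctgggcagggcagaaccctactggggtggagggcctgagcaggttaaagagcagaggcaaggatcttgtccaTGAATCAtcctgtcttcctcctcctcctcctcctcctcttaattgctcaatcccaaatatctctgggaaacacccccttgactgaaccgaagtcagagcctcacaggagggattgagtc
Krtdap (chr7:30787655-30787904, plus strand): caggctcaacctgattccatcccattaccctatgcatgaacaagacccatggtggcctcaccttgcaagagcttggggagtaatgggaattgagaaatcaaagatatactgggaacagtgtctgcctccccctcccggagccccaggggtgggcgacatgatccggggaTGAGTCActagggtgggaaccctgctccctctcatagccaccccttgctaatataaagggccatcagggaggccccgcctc
Hal (chr10:93488518-93488767, plus strand): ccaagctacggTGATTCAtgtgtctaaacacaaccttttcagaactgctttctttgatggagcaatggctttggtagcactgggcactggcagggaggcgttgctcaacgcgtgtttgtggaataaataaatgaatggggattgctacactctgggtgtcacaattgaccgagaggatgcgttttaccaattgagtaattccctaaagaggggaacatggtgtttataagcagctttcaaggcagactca

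In Sprr1a the motif occurred at 2 places, beginning 146 and 116 bases before the start, and in Ivl at 116. A TATA box (TATAAA) was found in 4 of the 8 promoters, Sprr1a, Ivl, Krtdap and Hal, against 12.4% of windows. A loose NF-kB motif (3 G and 2 C around 5 free bases) was found in 5 of the 8 and in 45.8% of windows, a C/EBP motif (TTGCNNAA) in 2 and in 9.56%, and a KLF motif (GGGNGTGG) in 1 and in 15.9%. The grainyhead motif AACCNGTT was in none of the 8 and in 1.79% of windows. Of the 8 members, 5 had windows inside the RefSeq gene spans given above, wholly for Sbsn, Lgals7 and Tgm1 (which has 2 windows) and partly for Ivl and Foxn1. Those windows precede a start site downstream of the outermost one. The sequence before the outermost start was thus not searched for Sbsn, Lgals7 and Tgm1, and was searched only in part for Ivl and Foxn1. A match describes the letters only, and Ivl, with 3 reads in all, carries the AP-1 motif as Sprr1a does.

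Depth ran from 13875951 to 17921815 counts in the controls and from 14149734 to 16412579 in the K5-RANKL pools. The values below are CPM, reads per 1000000 of library size after scaling with TMM (trimmed mean of M values). The TMM factor was 0.708 ± 0.0293 for the controls but 1.41 ± 0.0802 for the K5-RANKL pools (SD, n = 3 each), and with no such factor the tested genes had a median log2 fold change of 1.01 in place of 0.01. A reading of 0 counts allows up to 0.295 CPM in the shallowest control and 0.161 CPM in the shallowest K5-RANKL library, from 3 counts, which covers counting error only. Tnfsf11, which encodes RANKL, stood at 3.78, 1.87 and 0.939 CPM in controls and at 702, 405 and 723 CPM in K5-RANKL pools. The labelled tissue was checked with 17 salivary gland markers, which summed to 215000 to 266000 CPM in controls and 28800 to 39900 CPM in K5-RANKL pools. Of the 16 tested, 14 fell, and 32.1% of all tested genes did.

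Every K5-RANKL library stood above every control for 7 of the 9 members, all but Krtdap and Ivl. The same was true of 36.3% of tested genes and of 30.4% of all genes with a count. Since the members were chosen from this contrast, nothing is read from that count. The 9 genes together held 4.70, 4.91 and 5.63 CPM in controls and 68.7, 49.7 and 61.0 CPM in K5-RANKL pools.

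**Figure D1:**
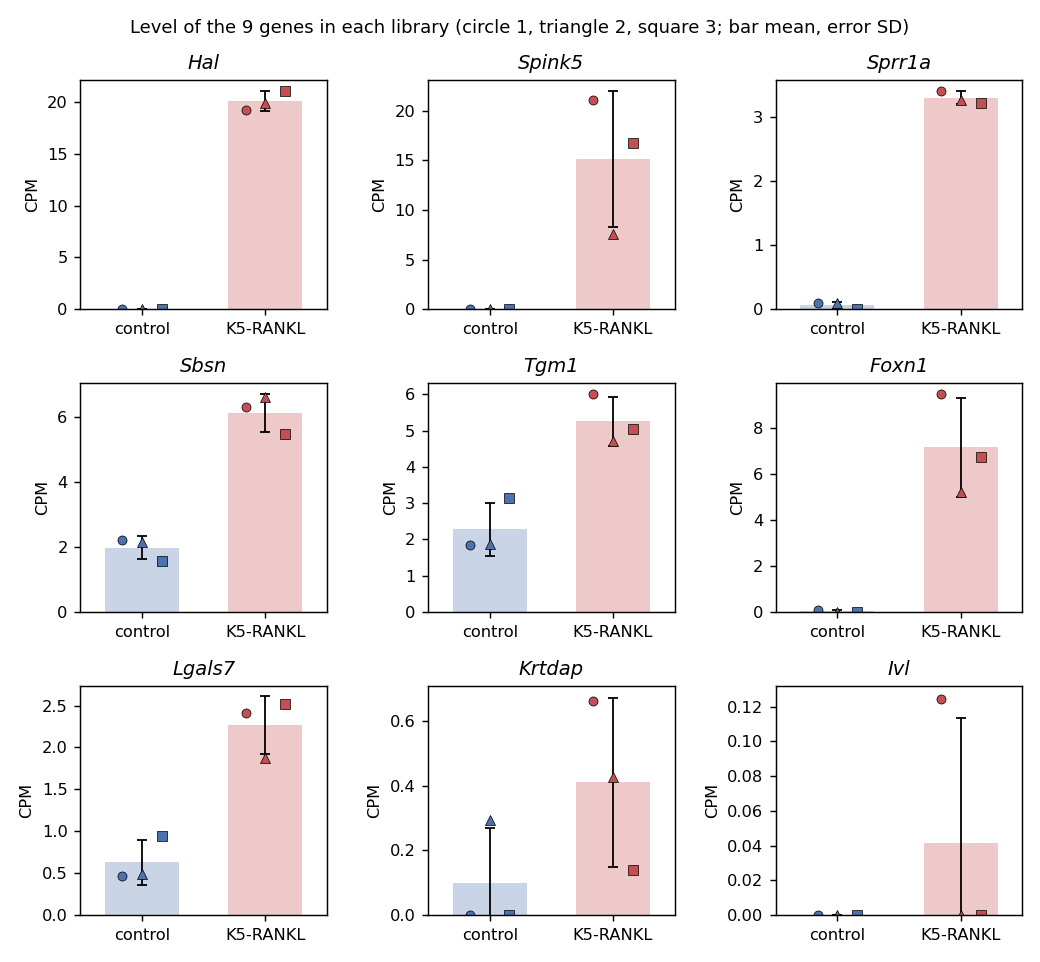
CPM on TMM-scaled library sizes (y axis, from 0, a separate scale for each gene) of the 9 genes in 3 control and 3 K5-RANKL pools; symbols are libraries 1, 2 and 3, bars are means and error bars are SD, cut at 0. The groups do not overlap except for Krtdap and Ivl, and Hal reaches 19.2 to 21.1 CPM from 0 in every control.

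Among the envelope precursors and their cross-linking enzyme, Sprr1a, Tgm1 and Ivl behaved unlike each other. Sprr1a, which encodes a small proline-rich envelope protein, had 1, 1 and 0 reads in controls and 82, 61 and 69 in K5-RANKL pools. That is 3.40, 3.26 and 3.22 CPM, nearly level across the K5-RANKL pools, and a ratio of 55.8 to controls (95% counting interval 15.3 to 464). The interval does not cover the scaling: the fitted log2 fold change, which with so few control reads depends on the prior count, was 5.63 with TMM and 6.55 by library totals. Tgm1, the membrane-bound transglutaminase of keratinocytes, was present in controls at 1.84, 1.87 and 3.13 CPM and stood at 6.02, 4.71 and 5.03 CPM in K5-RANKL pools. Its log2 fold change was 1.18 (SE 0.22), and 2.18 by library totals. Tgm1 was thus low but present in both groups. Ivl, encoding involucrin, the classic transglutaminase substrate, had 0 reads in every control and 3, 0 and 0 in K5-RANKL pools. Both groups lie at or under the limit of 3 counts, so Ivl was not detectable as different at this depth.

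The secreted proteins of the suprabasal layers, suprabasin (Sbsn) and the keratinocyte differentiation-associated protein (Krtdap), were also unequal. Sbsn had 24, 22 and 20 reads in controls, or 2.21, 2.16 and 1.57 CPM, and 6.31, 6.63 and 5.50 CPM in K5-RANKL pools. Its log2 fold change was 1.65 (SE 0.20), and 2.64 by library totals. Krtdap had 0, 3 and 0 reads in controls and 16, 8 and 3 in K5-RANKL pools, a ratio of 4.74 with a 95% counting interval of 1.46 to 24.4. The Krtdap groups overlapped, since control 2 stood at 0.295 CPM and K5-RANKL 3 at 0.140 CPM. Dmkn, the gene between them, belongs to the list of envelope proteins. It had 3, 3 and 1 reads in controls and 106, 81 and 86 in K5-RANKL pools and rose by a log2 fold change of 4.31 (SE 0.34, edgeR adjusted p = 6.51e-09).

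Hal and Spink5 had no reads in any control library. Hal encodes histidine ammonia-lyase, which turns histidine into urocanate, an ultraviolet absorber of the outer epidermis. Hal had 463, 373 and 453 reads in K5-RANKL pools, 19.2, 19.96 and 21.1 CPM, and was at least 226-fold higher against 3 counts over the control group. The K5-RANKL pools differed little in Hal (SD 0.952 CPM, n = 3). Spink5 encodes LEKTI, a multidomain inhibitor of the epidermal kallikreins. It had 508, 142 and 360 reads, 21.1, 7.60 and 16.8 CPM, and was at least 177-fold higher by the same measure. K5-RANKL 2 stood well below the other pools for Spink5, which was not the case for Hal. Of 1364 genes with 0 counts in all controls and a count in a K5-RANKL library, 56 had enough counts to be tested and 4 were at 5 CPM or more in each K5-RANKL library. Hal and Spink5 ranked 1 and 2 among these genes by mean K5-RANKL CPM, in that order. As the members were chosen from this contrast, nothing is read from these ranks.

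Foxn1 and Lgals7 complete the set. Foxn1 encodes a forkhead transcription factor of thymic epithelium and of differentiating keratinocytes. It had 1 read in control 1 and none in the other controls, and 229, 98 and 145 reads in K5-RANKL pools, which is 9.51, 5.24 and 6.76 CPM. The ratio was 248 with a 95% counting interval of 44.4 to 9834, and the fitted log2 fold change was 7.60 with TMM and 8.47 by library totals. Without control 1 the controls held no Foxn1 read at all, so the size of the difference is poorly bounded. Lgals7, which encodes galectin-7, a lectin of stratified epithelia, had 5, 5 and 12 reads in controls, 0.461, 0.491 and 0.939 CPM, and stood at 2.41, 1.87 and 2.52 CPM in K5-RANKL pools. Its log2 fold change was 1.80 (SE 0.32), and 2.80 by library totals.

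Levels of different genes are compared per kilobase of exon, with lengths taken from GENCODE vM21 on GRCm38. On that scale the order of mean levels in K5-RANKL pools was Sprr1a at 4.09 ± 0.122 CPM per kb, Hal at 3.62 ± 0.172, Spink5 at 3.17 ± 1.44, Lgals7 at 2.44 ± 0.371, Foxn1 at 2.23 ± 0.672, Sbsn at 1.70 ± 0.161, Tgm1 at 1.66 ± 0.216, Krtdap at 0.605 ± 0.387 and Ivl at 0.0216 ± 0.0374 (SD, n = 3). Sprr1a lay above Hal in every library, while Spink5 ran from 1.59 to 4.41 and could not be placed against Sprr1a, Hal, Lgals7, Foxn1, Sbsn or Tgm1. Foxn1 overlapped Lgals7, Sbsn and Tgm1, and Sbsn overlapped Tgm1, so their order is within their spread. For scale, the basal keratin genes Krt5 and Krt14 stood at 141 ± 58.7 and 122 ± 40.7 CPM per kb in the same libraries, so these members were present at a small part of the level of basal keratins.

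The K5-RANKL pools differed among themselves, and the members ranged widely in how low they stood in K5-RANKL 2. Krt5 stood at 398, 161 and 368 CPM and Krt14 at 270, 134 and 242 CPM, each lowest in K5-RANKL 2, as was Tnfsf11. As a log2 ratio to the mean of the other pools, with 0.5 CPM added to each, K5-RANKL 2 was at −1.26 for Spink5, −0.59 for Foxn1, −0.32 for Lgals7 and −0.21 for Tgm1. By the same measure it was at −1.25 for Krt5, −0.93 for Krt14 and −0.81 for Tnfsf11. It was at −0.01 for Hal, −0.02 for Sprr1a and 0.16 for Sbsn. K5-RANKL 2 was the lowest K5-RANKL library for 4 of the 9 members, Spink5, Foxn1, Lgals7 and Tgm1, and for 35.9% of tested genes, or 51.5% of those called higher. The members' count lies near these shares, and nothing particular to them is read from it. These are 3 libraries, and whether a member follows the basal keratins was not tested.

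**Figure D2:**
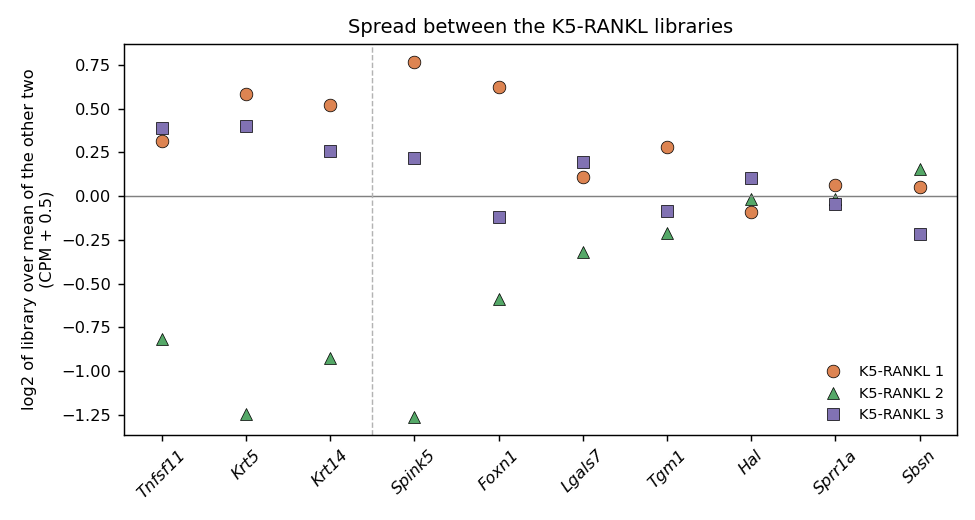
Each K5-RANKL library relative to the mean of the other two, as a log2 ratio with 0.5 CPM added to each (y axis), for Tnfsf11, Krt5 and Krt14 (left of the dashed line) and the 7 members with enough counts. K5-RANKL 2 sits at −1.26 for Spink5, close to its −1.25 for Krt5, and near 0 for Hal and Sprr1a.

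To place the members in their pathways, 7 lists of other epidermal genes were used, 266 genes in all, of which 258 were in the table. In the test across all genes (edgeR quasi-likelihood, adjusted p under 0.05), 66.2% of 14044 genes were called, 34.2% higher and 32.1% lower. Of the 122 listed genes with enough counts, 64 rose, 34 fell and 24 were not called. Their median log2 fold change was 0.36, and 0.01 over all genes. The lists were chosen with earlier results of these data known. Some listed genes without control reads, such as Krt16, Krt6a and Pou3f1, had enough counts only through the K5-RANKL pools. Nothing is therefore read from the difference between the lists and all genes. All changes of listed genes given below are log2 fold changes of K5-RANKL over control. Library totals gave 97 that rose and 9 that fell, and 11733 and 698 over all genes. A further 42 listed genes had no read in any library, and 94 had too few to test.

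**Figure D3:**
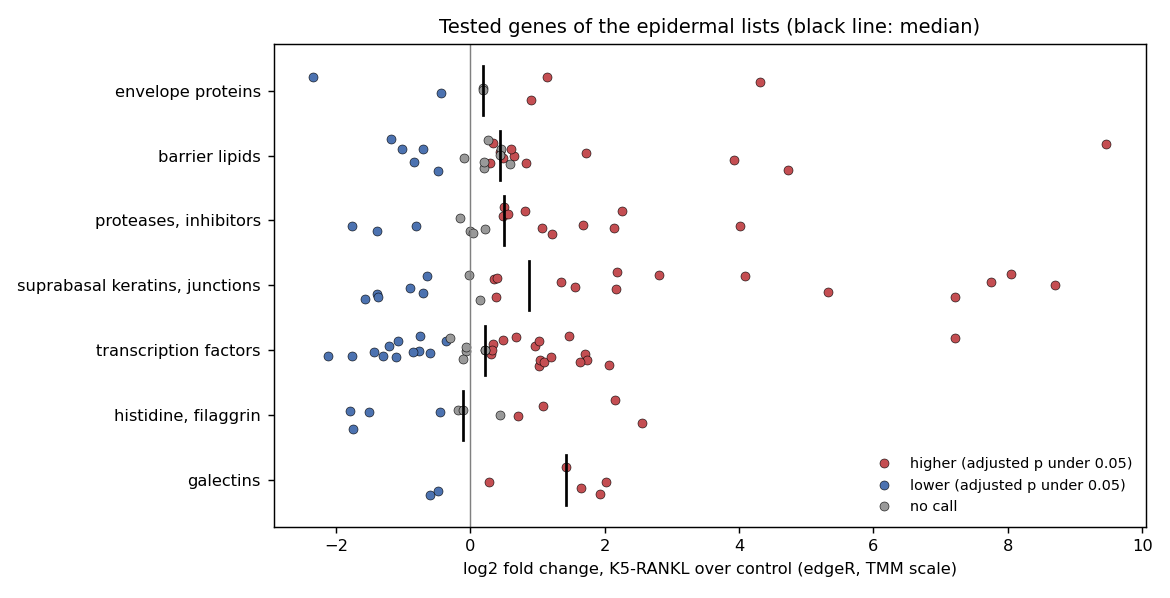
Log2 fold change, K5-RANKL over control (x axis, TMM scale), of the 122 tested genes in 7 lists (rows); red points rose, blue points fell and grey points did not pass at adjusted p under 0.05, and black lines are medians. The highest values are those of Alox12e, Dsg1a and Dsg1b, and each list holds genes on both sides of 0.

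Most of the remaining envelope genes had few or no reads. Of 57 listed envelope genes in the table, 29 had no read in any library, 21 had too few and 7 were tested, of which 3 rose and 2 fell (6 and 1 by library totals), around a median of 0.18. Dmkn was followed by Cst6, a cystatin of cornified epithelia, which rose by 1.15 (SE 0.36, edgeR adjusted p = 0.00929), a call lost without control 3 (edgeR adjusted p = 0.0742). Tgm2, the broadly expressed tissue transglutaminase, rose by 0.91 from 60.5 ± 3.48 to 113 ± 4.73 CPM (SD, n = 3 each). Tgm5, an epidermal transglutaminase, fell by 2.34 from 4.96 ± 0.941 to 0.979 ± 0.0837 CPM. The plakin gene Evpl fell by 0.44, a call lost without control 2, control 3 or K5-RANKL 1 (edgeR adjusted p = 0.0808, 0.0624 and 0.0821) and turned to 0.56 by library totals.

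Within the epidermal differentiation complex on chromosome 3, from Lor to Tchhl1, Sprr1a stood almost alone. Of 51 genes in the table there, 29 had no read and 2 were tested, Sprr1a and Tchh. Sprr1a supplied 59.1% of the 359 reads in K5-RANKL pools. Tchh, encoding trichohyalin, did not pass, at 23 reads in controls and 62 in K5-RANKL pools. The other 49 genes held 2 reads in controls and 39, 40 and 6 in the K5-RANKL pools, most of them from Rptn (9, 7 and 5 reads), Sprr2d (7, 6 and 0) and Sprr2b (8, 4 and 0). The gene for loricrin, Lor, the main envelope protein of epidermis, had 1 read in each group. The 14 other listed Sprr genes had 0 reads in controls and 22, 20 and 0 in K5-RANKL pools, and the 21 Lce genes 1 in controls and 2, 5 and 0. Reads of Sprr2 and Lce genes can be split between near-identical copies.

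**Figure D4:**
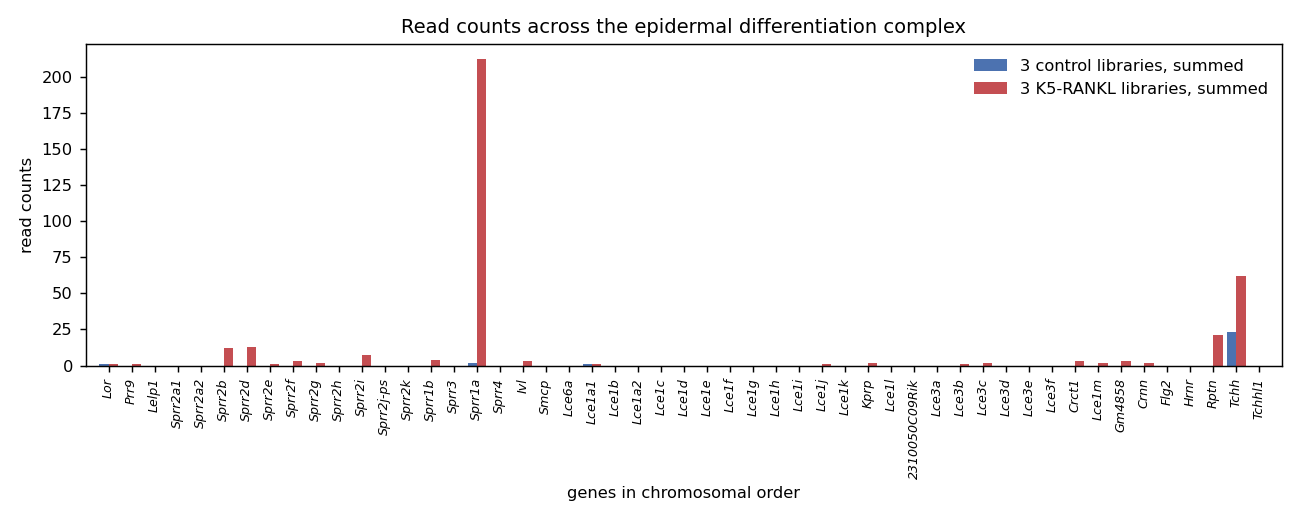
Read counts summed over 3 control (blue) and 3 K5-RANKL (red) libraries (y axis) for 51 genes of the epidermal differentiation complex in chromosomal order (x axis). Sprr1a holds 212 K5-RANKL reads, Tchh 62 and Rptn 21, and 29 genes hold none.

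Other genes of histidine handling were few in reads or moved in both directions. Amdhd1, encoding imidazolonepropionase of the same breakdown pathway, begins 6.6 kb from the end of Hal. It too had 0 reads in controls, and 16, 6 and 12 in K5-RANKL pools, too few to test. Uroc1, encoding the enzyme that takes urocanate onward, had 6 reads in controls and 14 in K5-RANKL pools, and Ftcd, of a later step, had 1 K5-RANKL read. Of the 11 tested genes on the list of histidine handling and filaggrin processing, 4 rose and 4 fell (8 and 2 by library totals), around a median of −0.11. Uroc1, Amdhd1 and Ftcd were not among these 11, so the counts do not describe the breakdown steps after Hal. Hdc, which makes histamine from histidine, rose by 2.15 (SE 0.37, edgeR adjusted p = 7.36e-05), Gls2, a glutaminase gene, by 2.56, and Slc15a4, a lysosomal histidine transporter gene, by 1.08. Padi2, a protein arginine deiminase gene, fell by 1.79 from 234 ± 16.8 to 67.8 ± 11.8 CPM. The other listed deiminase genes, Padi1, Padi3 and Padi4, had too few reads to test. They had 9, 4 and 7 reads in controls and 46, 21 and 16 in K5-RANKL pools. The amino acid transporter gene Slc38a5 fell by 1.74, a call lost by library totals (edgeR adjusted p = 0.052). Casp14, a protease of filaggrin breakdown, had no read in any library.

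The relatives of Spink5, and the proteases LEKTI is known to inhibit, had few or no reads. Of 10 other listed Spink genes in the table, 5 had no read and 5 had too few to test. The kallikrein genes Klk5, Klk7 and Klk14, whose products LEKTI inhibits, had 0, 1 and 0 reads in controls and 1, 17 and 8 in K5-RANKL pools. Of 17 tested genes for epidermal proteases and their inhibitors 10 rose and 3 fell (14 and 2 by library totals), around a median of 0.51. The membrane serine protease gene Tmprss4 rose by 4.01 (SE 0.29, edgeR adjusted p = 2.28e-09) from 0.378 ± 0.0878 to 6.28 ± 1.23 CPM. Serpinb8, a serpin gene, rose by 2.25 and Asprv1, encoding the protease that trims profilaggrin, by 2.13. Wfdc12, a secreted antiprotease gene, fell by 1.76 from 1865 ± 48.6 to 549 ± 81.9 CPM, and Prss8, encoding prostasin, by 1.39.

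Suprabasal junction genes held some of the largest differences beside the members. Dsg1a and Dsg1b encode desmoglein 1, the cadherin that corneodesmosomes share with upper epidermal layers. Dsg1a had 4, 1 and 0 reads in controls and 1668, 1007 and 1538 in K5-RANKL pools and rose by 8.71 (SE 0.30, edgeR adjusted p = 2.28e-10), by 10.32 without control 1 and by 8.05 without control 3. Dsg1b had 1 control read, in control 1, and 636 in K5-RANKL pools, a ratio of 335 (95% counting interval 59.9 to 13243). Reads of these similar copies cannot be told apart with certainty. Krt16 and Krt6a, keratins of activated and wounded epidermis, had 0 reads in controls; Krt16 was at least 18.8-fold higher with 58, 19 and 30 reads, and Krt6a had 22, 32 and 18. Of 22 tested genes of this list 14 rose and 6 fell (17 and 1 by library totals), around a median of 0.87, which bounds for the genes without control reads left at 0.87. Among those that fell were Cdsn, encoding corneodesmosin, by 1.58, a call lost by library totals (edgeR adjusted p = 0.101), and Krt23 by 1.39. Krt1, the first keratin of the epidermal spinous layer, had 5 reads in controls and 6 in K5-RANKL pools.

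Barrier lipid genes were led by Alox12e, an epidermal lipoxygenase gene, which rose by 9.46 (SE 0.18, edgeR adjusted p = 1.68e-16) from 0.330 ± 0.117 to 235 ± 27.3 CPM. Alox12b and Abca12, encoding the lipoxygenase and the lipid transporter of the lamellar barrier, had 0 reads in controls and 5 each in K5-RANKL pools. Of 23 tested genes of this list 11 rose and 5 fell (20 and 0 by library totals), around a median of 0.43. Sptlc3, of sphingolipid synthesis, rose by 3.93 from 0.177 ± 0.0909 to 2.77 ± 1.01 CPM, and Smpd3, a sphingomyelinase gene, by 1.72. Liph and Fa2h fell by 1.19 and 1.01, and both calls were lost by library totals (edgeR adjusted p = 0.0882 and 0.88).

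Transcription factors of epidermal differentiation went both ways. Of 35 tested genes on their list, 17 rose and 12 fell (25 and 3 by library totals), around a median of 0.22. The list also holds genes that do not encode transcription factors, among them Sfn, which rose, and Kdf1 and Ripk4, which fell. Pou3f1, a POU factor of keratinocytes, had 0 reads in controls and 22, 18 and 32 in K5-RANKL pools, at least 12.6-fold higher. Prdm1, encoding BLIMP1, rose by 1.73 (SE 0.19, edgeR adjusted p = 2.88e-07), and Sfn, the 14-3-3 sigma gene listed with these factors as a partner in epidermal differentiation, by 2.06 from 8.48 ± 1.70 to 35.6 ± 8.29 CPM. Elf5 and Hopx fell by 2.12 and 1.76.

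Of 7 tested genes for galectins related to Lgals7 and for galectin-binding proteins, 5 rose and 2 fell (7 and 0 by library totals), around a median of 1.43. Lgals3 rose by 2.02 (SE 0.08, edgeR adjusted p = 9.03e-13) from 21.3 ± 0.843 to 86.2 ± 3.84 CPM, Lgals3bp, encoding a galectin-binding protein, by 1.93, and Lgals9 by 1.64. Lgals12 and Lgalsl fell by 0.60 and 0.49, and stood at 0.40 and 0.51 by library totals.

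Markers of other cell types that a gland dissection could hold were measured beside the members. The 13 markers of interfollicular epidermis in the table summed to 5.25 to 6.77 CPM in controls and 3.17 to 6.47 CPM in K5-RANKL pools, with Flg2, Hrnr, Lce1b and Casp14 at 0 in all 6 libraries. Of the 3 tested, Asprv1 rose, Cdsn fell as above, and Krt10 was called lower at 3.21 ± 0.971 against 1.97 ± 0.749 CPM (SD, n = 3 each), with overlapping groups and with 106 reads in controls and 124 in K5-RANKL pools before scaling. The 20 hair follicle markers summed to 0.861 to 1.29 CPM in controls and 1.77 to 2.14 CPM, with 8 at 0 in all libraries, Hoxc13 among them. The 10 markers of oral and oesophageal lining summed to 0.461 to 0.782 CPM in controls and 2.73 to 3.68 CPM, with Krt4 the highest and Sprr3 at 0. The 6 sebaceous markers summed to 2.5 to 5.16 CPM in controls and 1.83 to 3.16 CPM. The 8 lymph node markers, led by Glycam1, summed to 195 to 220 CPM in controls and 389 to 420 CPM in K5-RANKL pools. Of the 7 tested, 4 rose, and 34.2% of all tested genes did. Skeletal muscle markers summed to 84.5, 11.2 and 108 CPM in controls and 132 to 218 CPM in K5-RANKL pools. Of the 9 tested, 0 rose and 0 fell. The part of these tissues in the members' levels was not tested, and fewer cells of a type cannot be told apart from less RNA per cell in these bulk samples.

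Since Foxn1 is known from the thymus, thymic markers were read beside it. The 10 markers summed to 7.90 to 10.3 CPM in controls and 14.4 to 16.4 CPM in K5-RANKL pools. Of the 4 tested, 2 rose, and 34.2% of all tested genes did. Psmb11, a proteasome gene of cortical thymic epithelium, and Rag2, of developing lymphocytes, were at 0 in all 6 libraries. The other untested markers had few reads. Rag1 had 0 in controls and 8 in K5-RANKL pools, Dntt 12 and 27, Tbata 1 and 14, and Ptcra 1 and 0. Aire, a regulator of medullary thymic epithelium, had 2, 0 and 0 reads in controls and 135, 54 and 96 in K5-RANKL pools. The ratio for Aire was 75.0 (95% counting interval 20.6 to 622). Aire was lowest in K5-RANKL 2 as Foxn1 was, and so were 51.5% of all genes called higher. The other thymic marker that rose was Themis, by a log2 fold change of 0.48. Prss16 and Ccl25 were tested and not called, at log2 fold changes of 0.11 and −0.18. The 7 listed basal cell genes, led by Krt5, summed to 301 to 315 CPM in controls and to 1100, 585 and 1040 CPM in K5-RANKL pools. Of these 7, 5 rose, against 34.2% of all tested genes.

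The genes whose pattern was most like the members' mean were found by Pearson correlation of log2(CPM + 0.5) over the 6 libraries, among 11059 genes at 5 CPM or more on average in the higher group. They were Bcl2a1b, a survival gene with close copies (r = 0.99957), Neurl3 (0.99951), Ywhah (0.99942), Slc38a6 (0.99934) and Clu (0.99926). As 742 of those genes had r above 0.99, and all 6 points share the split into groups, this describes likeness and singles out none.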

How the data were processed

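Salivary gland RNA of 3 control and 3 K5-RANKL pools was sequenced from TruSeq Stranded mRNA libraries (per the labels' protocols). Raw read counts per gene are what the authors deposited. Reads were aligned with STAR to mm10, per the submitters' processing notes; the counting tool, annotation and strand setting used are not named there, so reads of the antisense genes that overlap Tgm1 and Lgals7, and of Tmem147os at Sbsn, are uncertain. Groups came from the genotype label; replicate numbers follow deposition order. Each pair of libraries of a group differed by a chi-square of 6.26 to 38.3 per gene, above sampling noise. Control 1 stood apart from controls 2 and 3, at 37 and 38.3, while controls 2 and 3 differed by 6.26. The K5-RANKL pairs differed by 12.5 to 23.1.

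Genes were filtered with edgeR's filterByExpr (minimum count 10), scaled by TMM and tested with the robust quasi-likelihood F-test, two-sided, with Benjamini-Hochberg adjustment over 14044 genes (edgeR 4.0.16 in R 4.3.3; alternatives used DESeq2 1.42.0 and limma 3.58.1). Standard errors are the fold change over the square root of F. Where the controls held 0 counts, a fold is a bound that takes 3 counts for the group; for 1 to 3 control counts the ratio has an exact 95% interval; both cover counting error only. Named in each list are the top 3 and bottom 2 called genes by fold change, at 1 CPM or more; other names were chosen after their values were seen. Members and lists were chosen with earlier results of these data known. Promoters and positions are RefSeq's on GRCm38.p6, the assembly of mm10. Alternatives were 4 scalings, 2 filters, 2 other tests and leaving out each library.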

Additional observations from a re-analysis of the deposited data

How the results depend on the processing

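Without a scaling factor (library totals) the calls over all genes were 11733 higher and 698 lower, where TMM gave 4799 and 4505, and the epidermal lists held 97 higher and 9 lower, against 64 and 34. By list, library totals gave 6 higher and 1 lower for envelope proteins, 20 and 0 for barrier lipids, 8 and 2 for histidine and filaggrin genes, 1 lower for suprabasal genes, 3 for transcription factors and 0 for galectins. Evpl, Lgals12 and Lgalsl then stood at 0.56, 0.40 and 0.51. Without a low-count filter 6 envelope genes were higher. With at least 50 counts in 3 libraries 1 envelope gene was lower, and 7 suprabasal and 2 histidine genes were higher, since fewer were tested. Envelope genes lower numbered 1 without control 2, control 3 or K5-RANKL 1. The other counts over all genes and over all lists stayed within 1.5 times. In each of the 14 alternatives 7 or 8 of the 9 members had every K5-RANKL library above every control, and none of the 7 tested members changed sign in any alternative that tested it. Their sizes were less stable. Of 97 fitted member values, 23 moved from the main value by at least the combined library SD of the groups in log2(CPM + 0.5). Sprr1a ran from 5.01 to 6.55 and Foxn1 from 6.79 to 9.98. For Hal and Spink5, at 0 in controls, the fitted log2 fold change ran from 8.82 to 11.79 and from 8.33 to 11.41 over the alternatives and gives a direction only. No paired analysis was possible because the labels give no replicate numbers. Depth limits Ivl, Krtdap and most Sprr and Lce genes.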

Other observations

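The listed epidermal genes with too few counts to test were not spread evenly over the K5-RANKL pools. The 94 such genes held 294, 248 and 197 reads in K5-RANKL 1, 2 and 3, and 56, 48 and 78 in the controls. Of them 77, 77 and 49 had a read in the respective K5-RANKL library, and 24, 23 and 30 in the controls. K5-RANKL 3 had no read of the 14 other listed Sprr genes or of the Lce genes, nor of Klk6 (9, 6 and 0 reads), Klk14 (5, 3 and 0) and Krt6b (5, 6 and 0). Other such genes were not lower there, among them Padi1 (8, 19 and 19 reads), Aloxe3 (4, 5 and 7), Tmprss11g (3, 3 and 6), Dlx5 (4, 0 and 6) and Amdhd1 (16, 6 and 12). Its total, 14806844 counts, was above the 14149734 of K5-RANKL 2, and its Sprr1a, Hal and Spink5 levels were within the range of the other pools or near it, at 3.22, 21.1 and 16.8 CPM. Ivl (3, 0 and 0 reads) and Krtdap (16, 8 and 3) were also lowest or absent there, although K5-RANKL 2 had no Ivl read either. The counts are small, the pattern was noticed after the values were seen, and its source was not tested.

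Desmoglein 3, the desmosomal cadherin of basal and lower layers encoded by Dsg3, had 1 control read and 41, 21 and 34 reads in K5-RANKL libraries (log2 fold change 5.33, SE 0.67, edgeR adjusted p = 2.08e-06). Lipm, an epidermal lipase gene, had 0, 0 and 1 reads in controls and 25, 15 and 23 in K5-RANKL libraries. The vitamin D receptor gene Vdr and the corepressor gene Hr rose by 1.10 and 1.20.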
